A study of Mus musculus with 4 samples.

Results

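Ribosome biogenesis and nucleolar genes were examined in mouse embryonic stem cells in which Lx8-SINE B2, a target named after 2 kinds of repeat element, was knocked down. The members were the 40 rows of the deposited gene count table whose symbols stood on a fixed list. That list held the MYC transcription factors, RNA polymerase I and its cofactors, the proteins of small nucleolar ribonucleoproteins, and factors that process and assemble the ribosomal subunits. All 40 symbols were found among 35976 gene rows, and all 40 passed the filter on low counts that left 16209 tested genes. The knockdown group held 2 libraries of cells transfected with a pSuper puro vector carrying a short hairpin RNA against Lx8-SINE B2, and the control group held 2 libraries labelled wild type. All cells were of the E14 line, a single embryonic stem cell line with the strain given as 12910la, and were kept on gelatin with fetal bovine serum and leukemia inhibitory factor. The protocol attached to all samples gives 1000 ng of vector, a wait of 24 h and then puromycin at 1 ug/ml for 3 days. What vector the control cells received is not stated there, and no row of the table carries the target's name, so its level was not checked. The labels do not tie replicates to separate cultures. Each p-value therefore covers no more than the spread among 4 libraries, and that spread may be technical. Only the knockdown titles name a batch, and an effect of that batch cannot be told apart from the knockdown.

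Ribosomes are built in the nucleolus, where RNA polymerase I transcribes the long precursor of the ribosomal RNAs. Box C/D proteins methylate that precursor, box H/ACA proteins convert some of its uridines to pseudouridine, and large sets of assembly factors cut and fold it into the small and the large subunit. MYC and its relative MYCN activate many of these genes, and pluripotent cells, which divide fast, express them at high levels. The mRNA libraries used here select transcripts with a poly(A) tail, so the ribosomal RNAs and their precursor were not measured.

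Total counts were 18592224 and 16383323 in the knockdown libraries and 19867689 and 19044832 in the control libraries. The 8 embryonic stem cell markers examined summed to 5208 and 5704 CPM, counts scaled to the library's total after TMM adjustment, in the knockdown libraries and to 7188 and 7096 CPM in the control libraries. Pou5f1, Sox2 and the other stem cell markers were all tested, and 1 of the 8, Tdgf1, was called lower. Fibroblast markers summed to at most 38.1 CPM in any library, with 2 of 9 at 0 in all 4. The 6 endoderm markers summed to 31.5 and 22.2 CPM in the knockdown libraries, against 10.0 and 13.5 CPM in the control libraries, and 0 of them were called. The 5 neural markers summed to 142 and 122 CPM in the knockdown libraries and to 121 and 127 CPM in the control libraries, and 1 of them was called higher. Mesoderm markers summed to 12.6 and 17.2 CPM in the knockdown libraries and 14.0 and 13.5 CPM in the control libraries. Trophectoderm markers summed to 46.1 and 83.7 CPM in the knockdown libraries and 55.2 and 64.5 CPM in the control libraries. The part of other cell types in the results below was not tested. In such bulk samples, fewer cells of a type and less RNA per cell cannot be told apart.

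The promoter windows of the most different members are shown because the MYC family binds the E-box CACGTG and, more weakly, CACGCG. Each window, from RefSeq on GRCm38.p6, runs 5′ to 3′ on the gene's strand from 250 bases before the annotated start to 50 bases after it. Matches to either motif, on either strand, are in capitals. Polr1a and Utp20 had the highest log2 fold changes of the members, and Nop10 and Nhp2 had the lowest.
Polr1a, chr6:71908803-71909102, + strand: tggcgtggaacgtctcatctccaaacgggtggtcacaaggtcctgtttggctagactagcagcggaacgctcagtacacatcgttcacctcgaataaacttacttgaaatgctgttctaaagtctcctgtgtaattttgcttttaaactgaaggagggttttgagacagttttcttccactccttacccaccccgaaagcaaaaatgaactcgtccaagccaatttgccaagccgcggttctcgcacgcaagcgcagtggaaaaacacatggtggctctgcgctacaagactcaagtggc
Utp20, chr10:88826765-88827064, - strand: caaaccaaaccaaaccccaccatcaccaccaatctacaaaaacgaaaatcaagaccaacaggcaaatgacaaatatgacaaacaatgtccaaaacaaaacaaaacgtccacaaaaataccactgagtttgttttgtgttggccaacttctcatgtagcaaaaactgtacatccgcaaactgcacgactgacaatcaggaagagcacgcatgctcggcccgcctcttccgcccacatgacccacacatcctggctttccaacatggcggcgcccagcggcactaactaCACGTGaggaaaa
Nop10, chr2:112261676-112261975, + strand: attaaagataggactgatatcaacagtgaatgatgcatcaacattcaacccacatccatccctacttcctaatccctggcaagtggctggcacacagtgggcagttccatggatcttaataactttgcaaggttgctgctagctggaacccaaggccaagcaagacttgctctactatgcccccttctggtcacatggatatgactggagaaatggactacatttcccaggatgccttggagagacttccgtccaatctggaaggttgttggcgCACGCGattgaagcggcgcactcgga
Nhp2, chr11:51619523-51619822, + strand: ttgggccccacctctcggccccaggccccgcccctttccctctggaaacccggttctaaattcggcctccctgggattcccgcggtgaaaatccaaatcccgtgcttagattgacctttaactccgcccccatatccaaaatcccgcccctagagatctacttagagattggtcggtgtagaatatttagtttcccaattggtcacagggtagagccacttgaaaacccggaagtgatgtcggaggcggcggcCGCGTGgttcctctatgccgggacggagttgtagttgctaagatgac
The Utp20 window held CACGTG, the Nop10 window CACGCG and the Nhp2 window the reverse complement CGCGTG, each downstream of the annotated start, while the Polr1a window held none of these letters.

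Of the 40 members, 35 had a promoter in the RefSeq table, with 44 windows in all. Myc, Fbl, Bop1, Rrs1 and Npm1 had no entry. CACGTG, which reads the same on both strands, was in 9 of the 44 windows (20.5%) and in 2349 of all 32851 windows (7.15%). CACGCG or CGCGTG was in 12 of the 44 windows (27.3%) and in 3045 of all windows (9.27%). The members with CACGTG were Ltv1, Mybbp1a, Nop2, Pes1, Pno1, Rrn3, Tsr1, Utp20 and Wdr43. Their median log2 fold change was -0.15, against -0.19 for the 26 matched members without it. For CACGCG the medians were -0.32 over 10 members and -0.15 over the other 25. A match describes the letters of these windows and does not show binding.

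The comparison asked how transcripts of the ribosome assembly line differed between knockdown and control cells. None of the 40 members was called at a Benjamini-Hochberg adjusted p of 0.05 by edgeR's quasi-likelihood test, where 232 of all 16209 genes (1.43%) were called, 0.555% lower and 0.876% higher. Of the 40 members, 29 had lower values in the knockdown libraries, where 49.5% of all tested genes did. The members' median log2 fold change was -0.18, against 0.01 over all tested genes. Members were chosen with earlier results of these data known, so these values only describe them. The members together took 10309 and 10327 CPM in the knockdown libraries and 11912 and 11558 CPM in the control libraries. The largest difference upward was that of Polr1a, at a log2 fold change of 0.69, and the largest downward was that of Nop10, at -0.62.

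At an unadjusted p of 0.05, 5 members passed (12.5%), namely Polr1a and Utp20 with higher values and Nop10, Nhp2 and Ddx21 with lower ones. Over all tested genes 19.6% passed, 8.58% lower and 11.0% higher, so the members passed no more often than the background. Only Polr1a was called, as higher, by DESeq2, by the edgeR likelihood ratio test and with no filter on low counts. These settings called 6.83%, 8.08% and 6.47% of all genes in either direction, and 3.02%, 3.17% and 2.72% as lower. In 19 members (47.5%) both knockdown libraries lay below both controls, where 24.6% of all tested genes did so. The reverse held for 4 members (10%), namely Polr1a, Utp20, Gar1 and Bysl, against 27.3% of all genes. In the other 17 members the groups overlapped, as they did in 7797 of 16209 tested genes. Groups were apart in either direction in 51.9% of all tested genes. The members' standard errors had a median of 0.19 on the log2 scale, against 0.30 for all tested genes. These sets differ in level, since the members' mean CPM ran from 45.4 to 1458 and that of tested genes went down to 0.30. The part of level in the standard errors was not tested. For 36 of the 40 members the 95% interval of the log2 fold change, not adjusted for the number of genes, lay within a 2-fold change in either direction. The exceptions were Mycn, Polr1a, Nhp2 and Nop10. Over all tested genes, 7105 of 16209 intervals lay within that range.

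**Figure D1:**
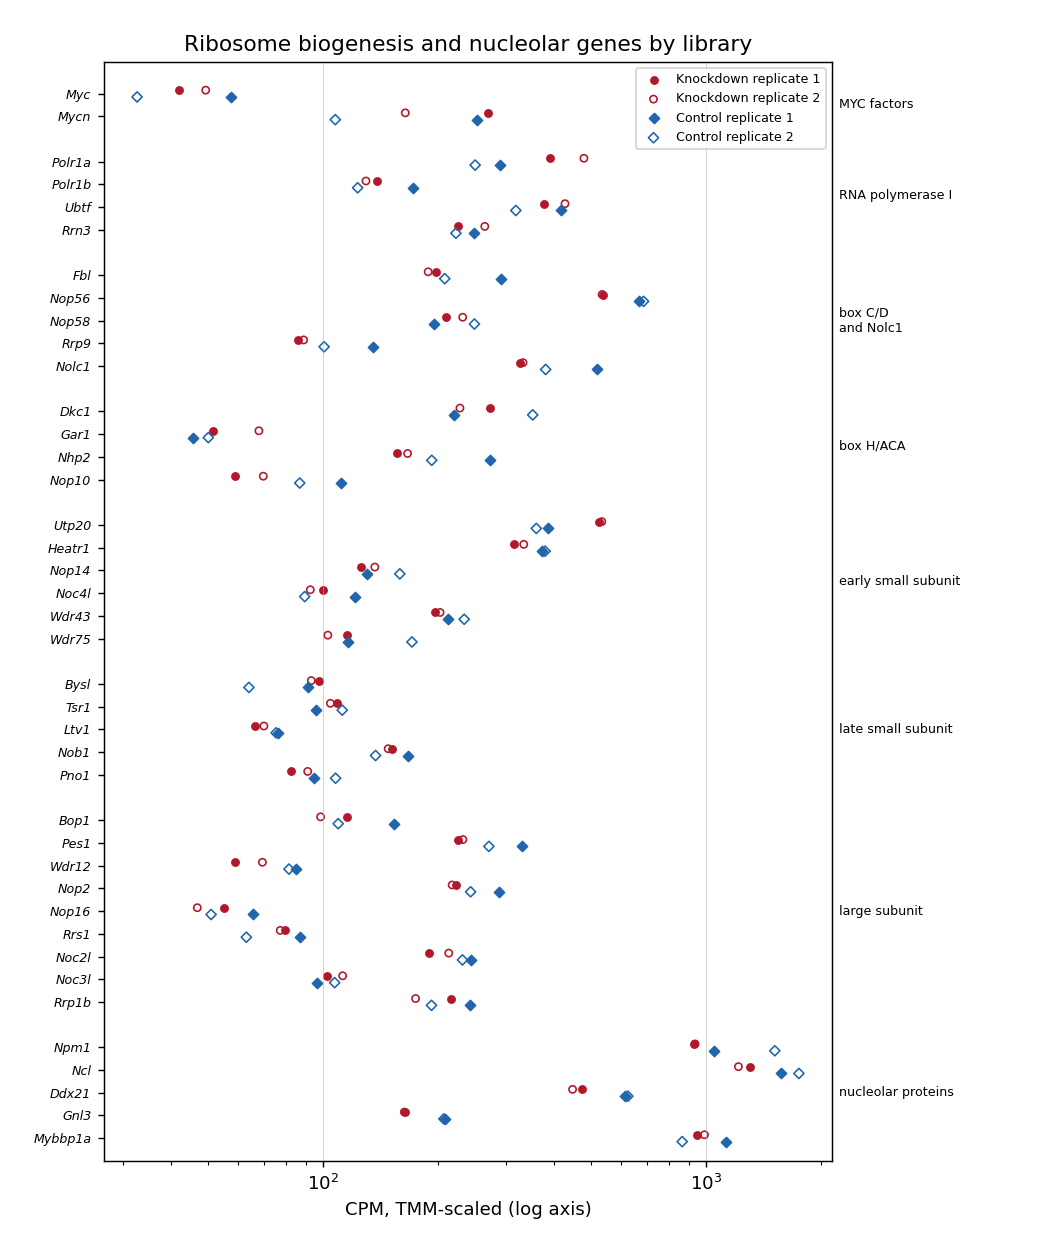
CPM of each of the 40 members in the 4 libraries on a log axis, grouped by role, with knockdown libraries as red circles and control libraries as blue diamonds (replicate 1 filled, replicate 2 open). In 19 members both red circles lie left of both blue diamonds, and in 4, among them Polr1a and Utp20, both lie to the right.

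Levels differed widely between members. Per kilobase of coding sequence, averaged over the 4 libraries, Npm1 was the most abundant with 1265 CPM and Ncl was next with 688 CPM. Npm1 was above Ncl in each library, with its lowest library at 1063 CPM per kilobase and the highest of Ncl at 824. Nhp2 and Nop10, with 428 and 426 CPM per kilobase, followed, although coding sequence makes up a small part of the Nop10 mRNA, so a value per coding length overstates it. The lowest levels per kilobase were those of Myc at 33.3 CPM, Polr1b at 41.3 CPM, Noc3l at 43.2 CPM and Tsr1 at 43.7 CPM.

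No difference was detectable in the MYC factors. Myc, on chromosome 15 from 61985341 to 61990361 (mm10, as are all positions here), had 42.1 and 49.4 CPM in the knockdown libraries and 57.5 and 32.7 CPM in the control libraries. Both knockdown values lay between the controls. The log2 fold change, knockdown over control, was 0.02 (standard error, SE, 0.28, edgeR adjusted p = 0.978), and its 95% interval ran from -0.63 to 0.67. Mycn, on chromosome 12 from 12936093 to 12941836, was the more abundant paralog per coding length, with 270 and 164 CPM in the knockdown libraries and 252 and 108 CPM in the control libraries. Replicate 1 was the higher library in both groups, and the groups overlapped. At 0.27 (SE 0.39, edgeR adjusted p = 0.745), its interval from -0.62 to 1.17 was the widest of the 40. The value of Mycn was -0.26 without control replicate 2 and 1.01 without control replicate 1, so its direction rested on single libraries.

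Among the RNA polymerase I genes, 1 of 4 had groups that did not overlap, where 51.9% of all tested genes had such groups in either direction. Polr1a encodes the largest subunit of the enzyme and lies on chromosome 6 from 71909053 to 71979435. It had 392 and 480 CPM in the knockdown libraries and 290 and 250 CPM in the control libraries, with no overlap. This was 1.62-fold higher, with a log2 fold change of 0.69 (SE 0.19, edgeR adjusted p = 0.106). Polr1a passed with DESeq2 (adjusted p = 0.0388), with the likelihood ratio test (adjusted p = 0.0315) and with no filter on low counts (adjusted p = 0.0230), settings that called 3.81%, 4.91% and 3.75% of all genes as higher. Over all 11 alternatives its adjusted p ranged from 0.0230 to 0.612, and its value was 0.44 once length and GC content of the transcripts were corrected for. Exons of an antisense gene, Gm26628, overlap those of Polr1a, and without a stated strand setting their reads cannot be told apart. Exons of 15 members, among them Nhp2 and Bysl, overlap those of a protein-coding gene on the opposite strand, with the same limit.

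Polr1b, which encodes the second largest subunit, had 138 and 129 CPM in the knockdown libraries and 171 and 123 CPM in the control libraries, a log2 fold change of -0.14 (SE 0.20). The knockdown values lay between the controls. Ubtf encodes the factor that keeps ribosomal DNA open for transcription. Its libraries overlapped as well, with 378 and 428 CPM in the knockdown libraries and 417 and 319 CPM in the control libraries. Rrn3, the gene of the initiation factor that joins the polymerase to the promoter, had a log2 fold change of 0.06 (SE 0.18).

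**Figure D2:**
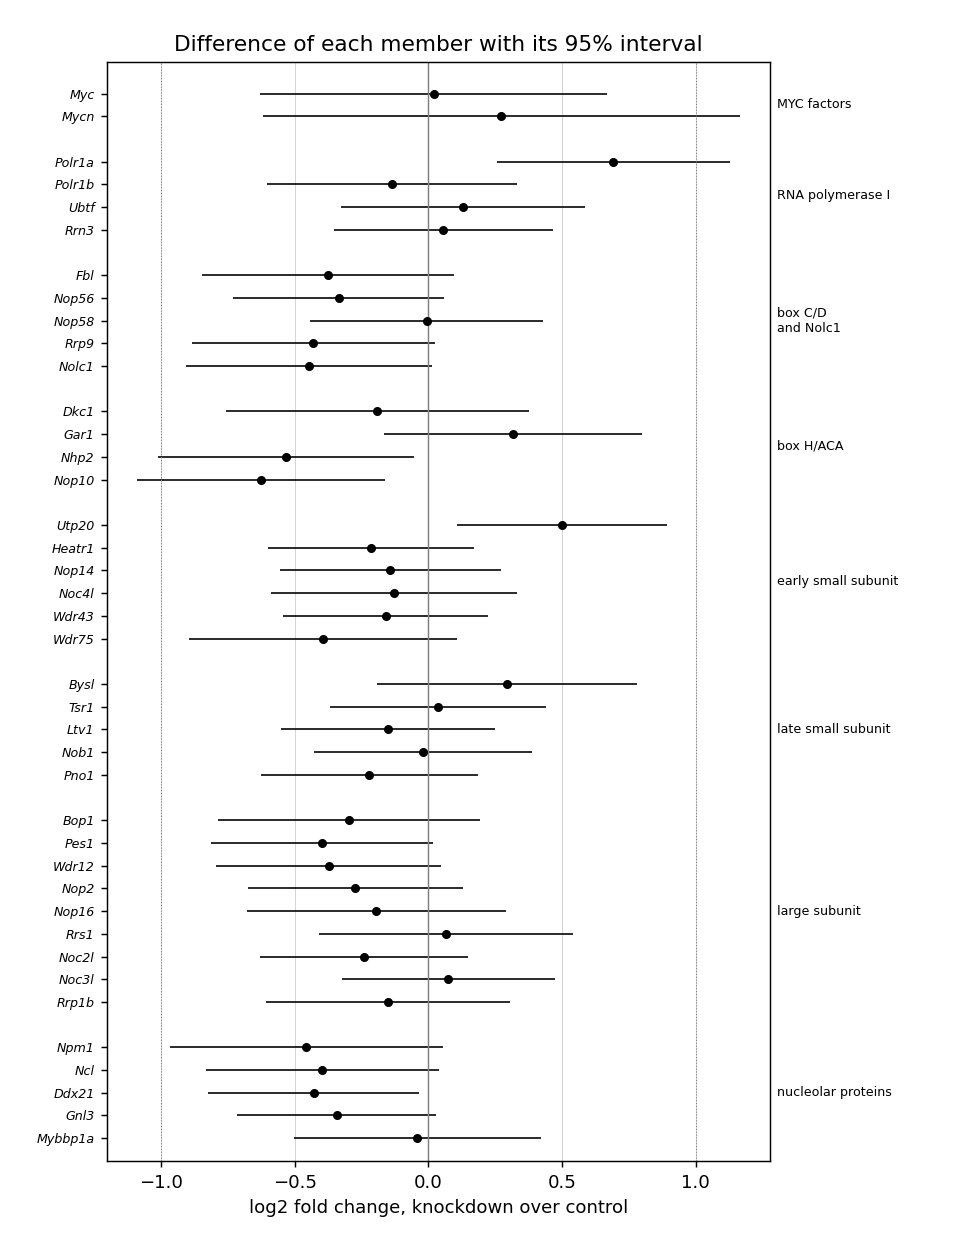
Log2 fold change of each member, knockdown over control, as a point with its 95% interval, grouped by role. Dotted lines mark a 2-fold change, and the intervals of Mycn, Polr1a, Nhp2 and Nop10 reach past them.

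Box C/D genes, with Nolc1, had lower values in all 5 members, with a median log2 fold change of -0.37, and 0 of the 5 were called. Nolc1, the gene of a phosphoprotein that shuttles between the nucleolus and Cajal bodies and binds both kinds of small nucleolar ribonucleoprotein, had 327 and 333 CPM in the knockdown libraries and 518 and 381 CPM in the control libraries. Its groups did not overlap, and its log2 fold change of -0.45 had a standard error of 0.20 (edgeR adjusted p = 0.270). The value was -0.21 without control replicate 1 and -0.70 without control replicate 2. Nop56, which encodes a core protein of the complex, was the most abundant of the group per coding length. It had 538 and 535 CPM in the knockdown libraries and 667 and 687 CPM in the control libraries, with libraries of each group close together and no overlap between them. Its log2 fold change was -0.34 (SE 0.17, edgeR adjusted p = 0.327). Nop58, the partner of Nop56 in the same core, had the value closest to 0 of the 5. It had 210 and 232 CPM in the knockdown libraries and 195 and 248 CPM in the control libraries, a log2 fold change of -0.01 (SE 0.19). The methyltransferase gene Fbl was at -0.37 and Rrp9, whose protein binds the small nucleolar RNA that guides the first cuts of the precursor, was at -0.43. Both had groups that did not overlap, but without control replicate 1 Fbl was at -0.11 and Rrp9 at -0.20, and without control replicate 2 they were at -0.65 and -0.68.

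Of the 4 box H/ACA genes, 3 had lower values and the median log2 fold change was -0.36. Nop10, a small core protein gene on chromosome 2 from 112261926 to 112262898, had 58.8 and 69.8 CPM in the knockdown libraries and 111 and 86.9 CPM in the control libraries. All knockdown values were below all control values, at a log2 fold change of -0.62 (SE 0.20, edgeR adjusted p = 0.144). Nhp2, on chromosome 11 from 51619773 to 51623718, encodes another core protein of the complex. It had 155 and 166 CPM in the knockdown libraries and 273 and 192 CPM in the control libraries, again without overlap, at a log2 fold change of -0.53 (SE 0.21, edgeR adjusted p = 0.212). Its value was -0.26 without control replicate 1 and -0.81 without control replicate 2. Gar1, whose protein helps load and release the substrate, had higher values, with 51.5 and 68.0 CPM in the knockdown libraries and 45.9 and 50.2 CPM in the control libraries, a log2 fold change of 0.32 (SE 0.21) that was 0.10 without knockdown replicate 2 and 0.50 without knockdown replicate 1. Dkc1 encodes dyskerin, the pseudouridine synthase itself. Its control libraries were far apart, at 219 and 353 CPM, around knockdown values of 273 and 228 CPM.

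Among 6 factors of the early small subunit precursor, 5 had lower values and the median log2 fold change was -0.15. Utp20, a scaffold gene on chromosome 10 from 88746607 to 88826814, was the exception. It had 524 and 534 CPM in the knockdown libraries and 387 and 360 CPM in the control libraries, with no overlap, a log2 fold change of 0.50 (SE 0.17, edgeR adjusted p = 0.162). After the correction for length and GC content its value was 0.27. Wdr75, which belongs to the subcomplex that binds the start of the precursor, had 115 and 103 CPM in the knockdown libraries and 117 and 171 CPM in the control libraries, a log2 fold change of -0.39 (SE 0.22). Its knockdown libraries were close to control replicate 1 and below control replicate 2, and its value was -0.14 without control replicate 2 and -0.65 without control replicate 1. Wdr43, of the same subcomplex and the most abundant of the 6 per coding length, had 196 and 202 CPM in the knockdown libraries and 211 and 234 CPM in the control libraries, a log2 fold change of -0.16 (SE 0.17). Heatr1, whose protein also belongs to the early precursor, was at -0.21. Nop14 and Noc4l, whose proteins act as partners, were at -0.14 and -0.13. With 1 library left out Nop14 ran from -0.28 to -0.04.

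For 5 factors of the late small subunit, log2 fold changes had a median of -0.02, and 3 of the 5 were lower. Bysl, the gene of bystin, had 97.3 and 93.2 CPM in the knockdown libraries and 91.3 and 64.0 CPM in the control libraries. The groups did not overlap, but the lower knockdown library was close to control replicate 1, and the value of 0.29 (SE 0.21) was 0.01 without control replicate 2 and 0.57 without control replicate 1. Pno1, the partner of the nuclease NOB1, had 82.5 and 91.2 CPM in the knockdown libraries and 94.7 and 108 CPM in the control libraries, a log2 fold change of -0.22 (SE 0.18). Nob1, which encodes the nuclease that makes the last cut of the small subunit RNA, was at -0.02, the GTPase-like factor gene Tsr1 at 0.04 and the export factor gene Ltv1 at -0.15.

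Large subunit factors had lower values in 7 of 9 genes, with a median log2 fold change of -0.24. Pes1, Bop1 and Wdr12 encode the trimer known as PeBoW, which is needed to process the spacer of the large subunit RNA. Pes1 had 225 and 232 CPM in the knockdown libraries and 331 and 271 CPM in the control libraries, without overlap, at -0.40 (SE 0.18, edgeR adjusted p = 0.273), and at -0.25 without control replicate 1. Wdr12 was at -0.37, without overlap, and Bop1 at -0.30, with overlap. Without control replicate 1 Bop1 was at -0.03, and without control replicate 2 at -0.57. The value of Noc3l, whose protein pairs with NOC2L on the precursor, was the highest of the 9. It had 102 and 112 CPM in the knockdown libraries and 96.4 and 107 CPM in the control libraries, a log2 fold change of 0.08 (SE 0.17). Noc2l was at -0.24, and the RNA methyltransferase gene Nop2 at -0.27, which was -0.15 without control replicate 1. The other values were -0.19 for Nop16, -0.15 for Rrp1b and 0.07 for Rrs1, and Nop16 ran from -0.42 to -0.0023 with 1 library left out.

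The abundant nucleolar protein genes had lower values in 5 of 5 members, with a median log2 fold change of -0.40 and 0 called. Npm1, the gene of the chaperone nucleophosmin on chromosome 11 from 33152498 to 33164142, had 931 and 936 CPM in the knockdown libraries and 1052 and 1512 CPM in the control libraries. The knockdown libraries almost coincided and lay below both controls, which were apart. Its log2 fold change was -0.46 (SE 0.22, edgeR adjusted p = 0.302), and was -0.22 without control replicate 2 and -0.70 without control replicate 1. Npm1 has processed pseudogenes, and reads that they share with it make its counts uncertain.

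Ncl and Ddx21 are given in full although they were chosen after their values were seen. Ncl, the nucleolin gene, had 1304 and 1215 CPM in the knockdown libraries and 1566 and 1748 CPM in the control libraries, a log2 fold change of -0.40 (SE 0.19). Ddx21, an RNA helicase gene, had 473 and 448 CPM in the knockdown libraries and 615 and 625 CPM in the control libraries, a log2 fold change of -0.43 (SE 0.17, edgeR adjusted p = 0.222). Neither gene's groups overlapped. Gnl3, the gene of nucleostemin, a GTP-binding protein of stem cells and proliferating cells, was at -0.34, with its groups apart. Mybbp1a, which encodes a nucleolar protein that binds MYB and p53, had 947 and 990 CPM in the knockdown libraries and 1126 and 866 CPM in the control libraries, a log2 fold change of -0.04 (SE 0.20). Its knockdown values lay between the controls.

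**Figure D3:**
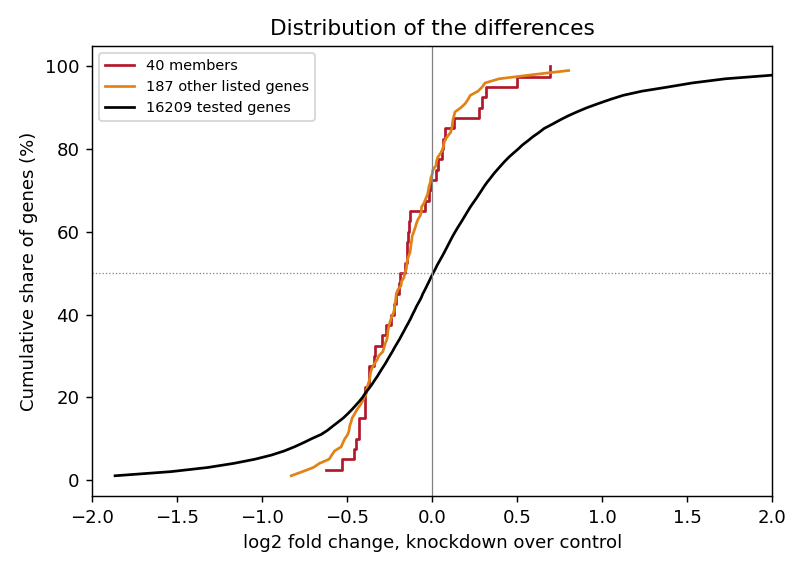
Cumulative share of genes against log2 fold change, knockdown over control, for the 40 members (red), 187 other listed genes of the pathway and the MYC network (orange) and all 16209 tested genes (black, drawn from -2 to 2). The red and orange curves cross 50% at -0.18 and -0.16, left of the black curve at 0.01, and both are steeper.

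The other listed genes took in genes of the pathway, the MYC network with its targets, and a list linking ribosomal proteins to p53. Their median was close to that of the members and their range was wider. Both ends of that range, Gart at -0.92 and Mdm2 at 1.57, came from the MYC target and p53 lists. Over 187 listed genes in the table, all of which were tested, 138 had lower values, where 49.5% of all tested genes did. The median log2 fold change was -0.16. Of the listed genes, 0 were called lower and 1 was called higher, where 0.555% and 0.876% of all tested genes were. The gene called higher was Mdm2, which encodes the ubiquitin ligase of p53 that ribosomal proteins RPL5 and RPL11 can inhibit. It had 406 and 457 CPM in the knockdown libraries and 145 and 146 CPM in the control libraries (log2 fold change 1.57, SE 0.17, edgeR adjusted p = 0.0120). The other 5 genes of its list of 6, which holds Rpl5, Rpl11 and Trp53, were not called, and the list's median was -0.13. In the lists of other small subunit factors, 35 of 47 genes had lower values, with a median of -0.13, and in that of large subunit factors 35 of 51 did, with a median of -0.07. The small subunit list ran from Fcf1 at -0.46 to Ddx52 at 0.31, and with 1 library left out Ddx52 ran from 0.02 to 0.62. The large subunit list ran from Cebpz at -0.52 to Ddx56 at 0.48, and Ddx56 was at 0.32 without control replicate 2. Other RNA polymerase I genes had a median of -0.18 over 17 genes, from Polr2e, a subunit gene shared by all 3 nuclear polymerases, at -0.61 to Ttf1, a termination factor gene, at 0.56. Without control replicate 1 Polr2e was at -0.38. With no filter on low counts it was called lower (edgeR adjusted p = 0.0496), where 2.72% of all genes were. Genes that assemble small nucleolar ribonucleoproteins had a median of -0.28 over 11 genes, from the ATPase gene Ruvbl2 at -0.75 to Pih1d1 at 0.24. Ruvbl2 had an edgeR adjusted p of 0.110. It was called lower with DESeq2 (adjusted p = 0.0291), the likelihood ratio test (adjusted p = 0.0350) and no filter on low counts (adjusted p = 0.00842). These settings called 3.02%, 3.17% and 2.72% of all genes as lower. RNA exosome genes had a median of -0.25 over 15 genes, from Exosc9 at -0.65 to Exosc5 at 0.16, and with 1 library left out Exosc9 ran from -1.04 to -0.17.

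The list of the MYC and MAX network had 6 of 11 genes lower, a median log2 fold change of -0.09 and 0 called. Mxd4, whose protein competes with MYC for MAX and represses transcription, had 24.7 and 19.0 CPM in the knockdown libraries and 9.67 and 6.43 CPM in the control libraries. The groups were well apart, at a log2 fold change of 1.44 (SE 0.32, edgeR adjusted p = 0.0666). Mycl, another MYC family gene, had the lowest value of the 11 network genes, at -0.83 (SE 0.28, edgeR adjusted p = 0.160). It had 20.8 and 14.1 CPM in the knockdown libraries and 35.5 and 26.6 CPM in the control libraries. With no filter on low counts Mycl was called lower (edgeR adjusted p = 0.0475), where 2.72% of all genes were.

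Known MYC targets outside the nucleolus had lower values in 27 of 30 genes, where 49.5% of all tested genes did. Their median log2 fold change was -0.34, and 0 were called. At an unadjusted edgeR p of 0.05, 11 of the 30 passed (36.7%), all with lower values. Over all tested genes 19.6% passed that unadjusted threshold, 8.58% with lower values. This list and the others were chosen with earlier results of these data known, so these shares only describe them. Gart, an enzyme gene of purine synthesis, had 293 and 314 CPM in the knockdown libraries and 639 and 512 CPM in the control libraries, a log2 fold change of -0.92 (SE 0.19, edgeR adjusted p = 0.0569). The knockdown libraries lay far below both controls. Ccnd2, a cyclin gene, had the highest value of the 30, with 11.9 and 6.99 CPM in the knockdown libraries and 5.92 and 5.81 CPM in the control libraries, a log2 fold change of 0.69 (SE 0.37) that was 0.25 without knockdown replicate 1. Mxd4 and Gart were each called with DESeq2 (adjusted p = 0.00232 and 8.02e-04), with the likelihood ratio test and with no filter on low counts. These settings called 3.81%, 4.91% and 3.75% of all genes as higher, and 3.02%, 3.17% and 2.72% as lower. With 1 library left out Mxd4 ran from 1.12 to 1.76 and Gart from -1.12 to -0.75.

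In the control group, the difference between the 2 libraries went with base composition. Across the 40 members, the log2 CPM ratio of replicate 1 over replicate 2 had a Spearman correlation with transcript GC content of 0.08 in the knockdown libraries and 0.74 in the control libraries. Over 14744 tested genes with a known transcript these values were 0.01 and 0.40. The points share their libraries, so the correlations describe these libraries only. The 10 members lowest in GC, from 41.0% to 44.8%, included Nop58, Npm1, Ncl, Dkc1 and Wdr75, and 2 of them were higher in control replicate 1 than in control replicate 2. Of the 10 highest in GC, from 54.2% to 59.8%, which included Rrp9, Bop1, Myc and Fbl, 9 were higher in control replicate 1. Medians of the control ratio were -0.17 and 0.43 in these sets, while those of the knockdown ratio were -0.02 and -0.01. For the log2 fold change between the groups, the correlation across members was 0.15 with GC content and 0.30 with transcript length, against 0.02 and 0.12 over all genes. GC content and length are those of 1 annotated transcript per gene, which may not be the form expressed here. The Myc transcript used has 1365 bases, of which 1362 are coding, so it holds almost no untranslated sequence. Those of Ncl and Nop58 have 8202 and 9507 bases, of which 2121 and 1608 are coding. The part of GC content in the members' values was not tested beyond the correction named above.

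**Figure D4:**
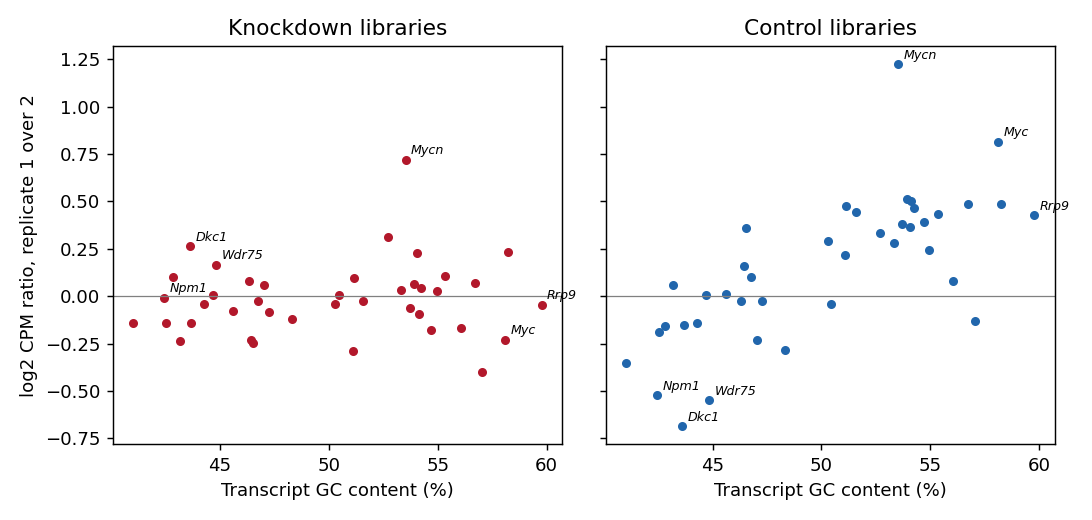
Log2 CPM ratio of replicate 1 over replicate 2 against transcript GC content for the 40 members, in the knockdown libraries (left, red) and the control libraries (right, blue). The control ratios climb with GC content, from Dkc1 and Npm1 at the lower left to Myc and Mycn at the top, while the knockdown ratios show no such slope, with Mycn the highest in both panels.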

How the data were processed

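The authors deposited raw counts of reads for each gene, not normalized, in 1 table of 36068 rows. Of these, 92 spike-in rows held 0 counts and were left out. Per the submitters' processing notes, cutadapt, HISAT2 and featureCounts were used with genome build mm10. Not given in the sources used here are versions, the annotation, the strand setting and how multi-mapping reads were handled. Another 27 rows carry a date in place of a symbol and stayed in the totals.

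Genes were kept with filterByExpr, scaled by TMM and tested with edgeR 4.0.16 (quasi-likelihood, group as the only term) in R 4.3.3, with Benjamini-Hochberg adjustment over all 16209 genes. CPM are TMM-scaled, and fold changes are knockdown over control. Standard errors are log2 fold changes, taken without sign, over the square root of F. Groups came from the sample titles. The procedure was also run on simulated counts, with the same dispersion for every gene, lower than that of these data. That setting was easier and does not show how the test performs on these libraries. Positions and promoters are from RefSeq GRCm38.p6, and lengths, GC content and exon overlaps from GENCODE M21, for the transcript with the longest coding sequence. Exons of 20 members overlap another annotated gene, in 15 a protein-coding gene on the opposite strand.

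Alternatives were other scalings, no filter on low counts, DESeq2 1.42.0, a likelihood ratio test, a replicate block, leaving out each library and, added after the data were seen, a correction for length and GC content. Members and lists were chosen with earlier results of these data known. Genes given in full were Myc, Mycn, called members and, in each role, the members with the highest and lowest log2 fold change and the highest level per coding length. Dkc1, Ncl and Ddx21 were given in full outside this rule. From each other list the called genes or the 2 extremes were named. With 2 libraries per group, the biological coefficient of variation was 24.9%.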

Additional observations from a re-analysis of the deposited data

How the results depend on the processing

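Across 11 alternatives, 26 of the 40 members kept the sign of their log2 fold change, 22 lower and 4 higher, and 14 changed it at least once. None of these alternatives called a member lower. Polr1a was called higher with no filter on low counts, DESeq2 and the likelihood ratio test, 1 member each. Genes called over the whole table numbered 1717 with no filter, 1107 with DESeq2 and 1310 with the likelihood ratio test, against 232, and 153 to 587 when 1 library was left out. Of 187 other listed genes, 10, 10 and 5 were called lower in those 3 settings, where 2.72%, 3.02% and 3.17% of all genes were. In each of those 3 settings, 2 were called higher, against 3.75%, 3.81% and 4.91% of all genes. With the correction for length and GC content, 1 listed gene was called lower. With 1 library left out, 0 to 4 were called lower and 1 to 2 higher, and the members' median lay between -0.27 (without control replicate 2) and -0.15. The labels do not say whether replicate numbers pair the libraries. Deviations of same-number libraries had a correlation of -0.05, which cannot settle this with 2 libraries per group. With replicate numbers as a block, 656 genes were called, with 1 listed gene lower, 2 higher and 0 members.

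Signs changed for Myc with RLE size factors (-0.0060), DESeq2 (-0.0060) and no filter (-0.0003). Signs also changed with library totals for Nop58 (0.0362), Nob1 (0.0331) and Mybbp1a (0.0137), with the block for Nop58 (0.0026), and with the length and GC correction for Rrn3 (-0.0011) and Tsr1 (-0.0079). With 1 library left out, values ran from -0.38 to 0.48 for Myc, -0.26 to 1.01 for Mycn, -0.41 to 0.12 for Polr1b, -0.10 to 0.34 for Ubtf, -0.0730 to 0.16 for Rrn3, -0.17 to 0.13 for Nop58, -0.49 to 0.14 for Dkc1 and -0.38 to 0.10 for Noc4l. They ran from -0.0754 to 0.10 for Tsr1, -0.20 to 0.12 for Nob1, -0.20 to 0.31 for Rrs1, -0.0017 to 0.14 for Noc3l, -0.36 to 0.0239 for Rrp1b, -0.27 to 0.16 for Mybbp1a, -0.0591 to 0.54 for Pih1d1 and -0.11 to 0.40 for Exosc5. Where 1 library stood alone, its spread was taken from the other group. The causes were not tested.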
